A study of Mus musculus with 20 samples.

Results

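The 4 genes S100a5, Pcp4l1, Lrrc3b and Sema7a, whose transcripts are tied to the activity of olfactory sensory neurons, were followed across 20 arrays. Each was represented by 1 of the 22206 probe sets for genes (TC0300000808.mm.2, TC0100003531.mm.2, TC1400001480.mm.2 and TC0900000720.mm.2 in that order), found by its symbol in the probe annotation. Mice with a tauGFP reporter of S100a5, of both sexes and 7 to 12 weeks old, spent 40 h in chambers with a clean air flow of 3.1 L/min. After 26 h they received 10 s pulses every 20 min, either of filtered air (vehicle) or of an artificial cigarette smoke odor (odor). Bourgeonal is named instead in the series' design text, and the sample labels were followed here. Each pool combined the dissociated olfactory mucosa of 3 mice and was sorted by flow cytometry for GFP, which gave 4 groups of 5 arrays from 10 pools and 30 mice: odor GFP+, odor GFP-, vehicle GFP+ and vehicle GFP-. All groups carried the reporter, and neither its zygosity nor the structure of the allele is stated in the labels.

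An olfactory sensory neuron expresses 1 odorant receptor gene, and odorant binding raises cAMP, opens a cation channel and depolarises the cell. Repeated firing changes the transcription of a set of genes over hours to days, slower than the immediate early genes that respond within minutes. S100a5 encodes a calcium-binding protein of the S100 family and is the gene on which the reporter is built, so GFP marks cells in which that reporter is switched on. Pcp4l1 encodes a small protein related to the calmodulin regulator Pcp4. Lrrc3b encodes a membrane protein with leucine-rich repeats. Sema7a encodes a membrane-anchored semaphorin that acts on plexin C1 and integrins in axon growth and synapse formation, and it is also carried by white blood cells.

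The promoters of the 4 genes are shown because the genes were higher in the same sorted fraction. Each window runs from 250 bases before to 50 bases after the start of the gene, 5′ to 3′ on the strand of the gene, from RefSeq on GRCm38.p6. Capitals mark every match, on either strand, to the cAMP response element TGACGTCA, its half-site TGACG, the AP-1 site TGANTCA, the EBF core site, the homeodomain site TAATTA, the EGR site GCGTGGGCG, the E-box CANNTG, the CCAAT box CCAAT and the TATA box TATAAA.
S100a5, + strand, chr3:90608272-90608571: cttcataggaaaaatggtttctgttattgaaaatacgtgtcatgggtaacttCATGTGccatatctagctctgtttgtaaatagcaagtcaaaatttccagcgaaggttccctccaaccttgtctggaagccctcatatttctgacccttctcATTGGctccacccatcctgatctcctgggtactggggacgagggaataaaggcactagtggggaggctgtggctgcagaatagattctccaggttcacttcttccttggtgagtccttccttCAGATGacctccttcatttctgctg
Pcp4l1, - strand, chr1:171196219-171196518: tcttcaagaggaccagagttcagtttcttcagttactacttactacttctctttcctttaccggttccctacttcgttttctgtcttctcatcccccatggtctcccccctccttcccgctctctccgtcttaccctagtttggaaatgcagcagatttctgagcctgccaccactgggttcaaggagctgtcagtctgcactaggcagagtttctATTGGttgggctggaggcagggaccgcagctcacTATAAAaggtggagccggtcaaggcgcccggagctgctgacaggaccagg
Lrrc3b, - strand, chr14:15438938-15439237: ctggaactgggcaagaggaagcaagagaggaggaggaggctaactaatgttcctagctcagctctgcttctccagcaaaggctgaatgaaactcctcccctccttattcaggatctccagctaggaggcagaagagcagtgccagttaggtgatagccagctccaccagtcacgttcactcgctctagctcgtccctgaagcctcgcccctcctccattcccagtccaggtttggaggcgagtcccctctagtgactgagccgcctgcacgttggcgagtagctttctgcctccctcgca
Sema7a, + strand, chr9:57939862-57940161: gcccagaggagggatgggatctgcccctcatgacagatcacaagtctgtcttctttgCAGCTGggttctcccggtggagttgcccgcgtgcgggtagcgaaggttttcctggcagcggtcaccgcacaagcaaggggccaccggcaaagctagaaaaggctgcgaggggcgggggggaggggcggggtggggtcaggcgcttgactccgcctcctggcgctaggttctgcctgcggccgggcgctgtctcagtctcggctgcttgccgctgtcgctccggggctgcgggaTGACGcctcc

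None of the 4 windows held the full cAMP response element, the AP-1, EBF, homeodomain or EGR letters, which occurred in 1.79%, 7.81%, 0.904%, 5.29% and 0.612% of 32851 RefSeq promoter windows of this length. The half-site TGACG lies within TGACGTCA and occurred in 20.8% of windows, and Sema7a held 1 match. S100a5 held 2 E-boxes and Sema7a 1, a motif found in 72.3% of windows. The CCAAT box was matched on the reverse strand (ATTGG) in S100a5 and in Pcp4l1 against 37.4% of windows, and TATAAA was matched once, in Pcp4l1, against 13.6%. The last pair of motifs was added after the sequences had been seen. Counted in bases from the annotated gene start, TATAAA began at 0, 1 S100a5 E-box at 25 and the Sema7a half-site at 40. The other matches began between -198 and -34, before the start. Lrrc3b held none of the 9 motifs, and GC content ran from 46.3% in S100a5 and 53.3% in Pcp4l1 to 57.0% in Lrrc3b and 67.3% in Sema7a.

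Some features of the arrays touch these genes. Median signals were 7.03 to 7.46 on the 4 arrays numbered 5 and 6.06 to 6.39 on the other 16, so results are also given without both pools numbered 5 where they change. The array of vehicle GFP- cells in pool 1 had the lowest mean correlation with its own group, 0.895, where the other 19 had 0.941 or more. Genes of mature sensory neurons were lower on that array: the median GFP+ minus GFP- difference of 17 such genes was 1.98 on the log2 scale in vehicle pool 1 and -0.30 to 0.78 in the other 9 pools. Values are log2 signals, and their level cannot be set between genes. In sorted bulk samples, fewer cells of a type and less RNA per cell cannot be told apart. The labels do not state how many cells each fraction held.

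S100a5 was higher in GFP+ cells of all 10 pools. In vehicle pools 1 to 5 its log2 signal in GFP+ cells was 16.36, 17.08, 16.64, 16.25 and 16.66, and in GFP- cells of the same pools it was 16.07, 14.53, 14.69, 15.82 and 15.38. In odor pools 1 to 5 it was 16.92, 16.66, 16.71, 17.40 and 16.88 in GFP+ cells and 14.43, 15.41, 14.27, 14.15 and 15.55 in GFP- cells. The fractions did not overlap in either condition, and the GFP+ arrays lay closer together (SD 0.32 and 0.29) than the GFP- arrays (SD 0.68 and 0.66, n = 5 each). Vehicle pools 1 and 4 stood out with high S100a5 in GFP- cells and log2 differences of 0.29 and 0.44. The sort used the reporter of this gene, so its difference between fractions describes the sort and is no independent result. The log2 difference was 1.30 in vehicle pools (SE 0.36, 95% confidence interval 0.53 to 2.08, adjusted p = 0.0368 by limma) and 2.15 in odor pools (SE 0.36, 1.37 to 2.92, adjusted p = 0.00131 by limma), which is 2.46-fold and 4.44-fold. The vehicle difference no longer passed when vehicle replicate 2 (0.99), 3 (1.14) or 5 (1.31) was dropped, or when odor replicate 1 or 3 was dropped from the shared variance estimate. Quantile normalization (1.26, adjusted p = 0.0708 by limma), leaving out both pools numbered 5 (1.31, adjusted p = 0.123 by limma) and the replicate block (1.30, adjusted p = 0.124 by limma) also ended it, so that 9 of 19 alternatives did in all. The remaining 1, centring on the mature neuron genes, gave 0.78 (adjusted p = 0.28 by limma). The S100a5 signal was 8.58 to 12.2 above the median of the background controls and 1.77 to 5.67 below the brightest probe set of its array.

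Pcp4l1 was higher in GFP+ cells of all 10 pools. Its GFP+ signal in vehicle pools 1 to 5 was 14.51, 14.03, 14.51, 14.10 and 15.38, against 11.38, 12.94, 11.44, 12.93 and 13.26 in GFP- cells. In odor pools the GFP+ values were 13.73, 14.33, 14.78, 14.15 and 15.39 and the GFP- values 12.43, 12.03, 12.38, 12.86 and 13.71. The fractions did not overlap in vehicle pools (14.03 against 13.26 at the nearest) and came within 0.1 of each other in odor pools (13.73 against 13.71). Pool 5 gave the highest value in each of the 4 groups. Pcp4l1 rose by 2.12 (SE 0.32, adjusted p = 0.00053 by limma) in vehicle pools, or 4.34-fold, and by 1.79 (SE 0.32, adjusted p = 0.00233 by limma) in odor pools, or 3.47-fold. Both calls held under all 19 alternatives run for each, with log2 differences from 1.59 to 2.37 in vehicle and 1.59 to 2.00 in odor pools.

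Lrrc3b was higher in GFP+ cells of every pool, but its level varied more between pools than that of Pcp4l1. In vehicle pools 1 to 5 the GFP+ signal was 12.54, 12.59, 12.70, 14.15 and 14.39 and the GFP- signal 8.56, 11.67, 9.77, 13.61 and 13.05. In odor pools these were 11.93, 13.39, 14.62, 14.99 and 15.46 against 10.02, 10.68, 13.01, 12.98 and 14.07. The fractions overlapped as groups in both conditions, since GFP- cells of one pool exceeded GFP+ cells of another, and the difference is seen within pools. Within pools it ran from 0.54 to 3.97 in vehicle and from 1.38 to 2.72 in odor pools. Lrrc3b rose by 1.94 (SE 0.42, adjusted p = 0.00744 by limma) in vehicle and by 1.92 (SE 0.42, adjusted p = 0.00883 by limma) in odor pools, both about 3.8-fold. Fitted without the pairing of fractions within pools, both calls ended (adjusted p = 0.469 and 0.571 by limma). Another RefSeq gene, B230110C06Rik, overlaps the span of Lrrc3b, and whether its transcripts reach the Lrrc3b probes was not tested.

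Sema7a had the widest range of the 4 genes, and 1 array set much of it. In vehicle pools the GFP+ signal was 13.12, 13.28, 13.47, 14.10 and 14.10 and the GFP- signal 7.88, 12.73, 11.56, 13.32 and 13.45. In odor pools the GFP+ signal was 13.48, 13.35, 14.09, 14.22 and 14.87 against 12.23, 11.55, 13.10, 13.18 and 14.21 in GFP- cells. The fractions overlapped as groups in both conditions, and the value of 7.88, in vehicle pool 1, lay 2.29 above the median of the background controls. That pool had a difference of 5.24, and the other vehicle pools had 0.55 to 1.91. Sema7a rose in vehicle pools by 1.83 (SE 0.53, adjusted p = 0.0481 by limma). Without vehicle replicate 1 the value was 0.97 (adjusted p = 0.0275 by limma), with a smaller spread. In odor pools the difference was 1.15 (SE 0.53, 95% confidence interval 0.00 to 2.29, adjusted p = 0.311 by limma) and did not pass. Without vehicle replicate 1, which enters odor pools only through the shared spread, the same 1.15 had an SE of 0.23 and an adjusted p of 0.00461 by limma. The vehicle call ended under 13 of 19 alternatives, with adjusted p-values from 0.051 to 0.306 by limma in those 13. They include leaving out both pools numbered 5 (2.12, adjusted p = 0.0784 by limma), the replicate block (1.83, adjusted p = 0.0566 by limma), leaving out vehicle replicate 3 (1.81), 4 (2.09) or 5 (2.12) and leaving out any 1 of the 5 odor pools (1.83).

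**Figure D1:**
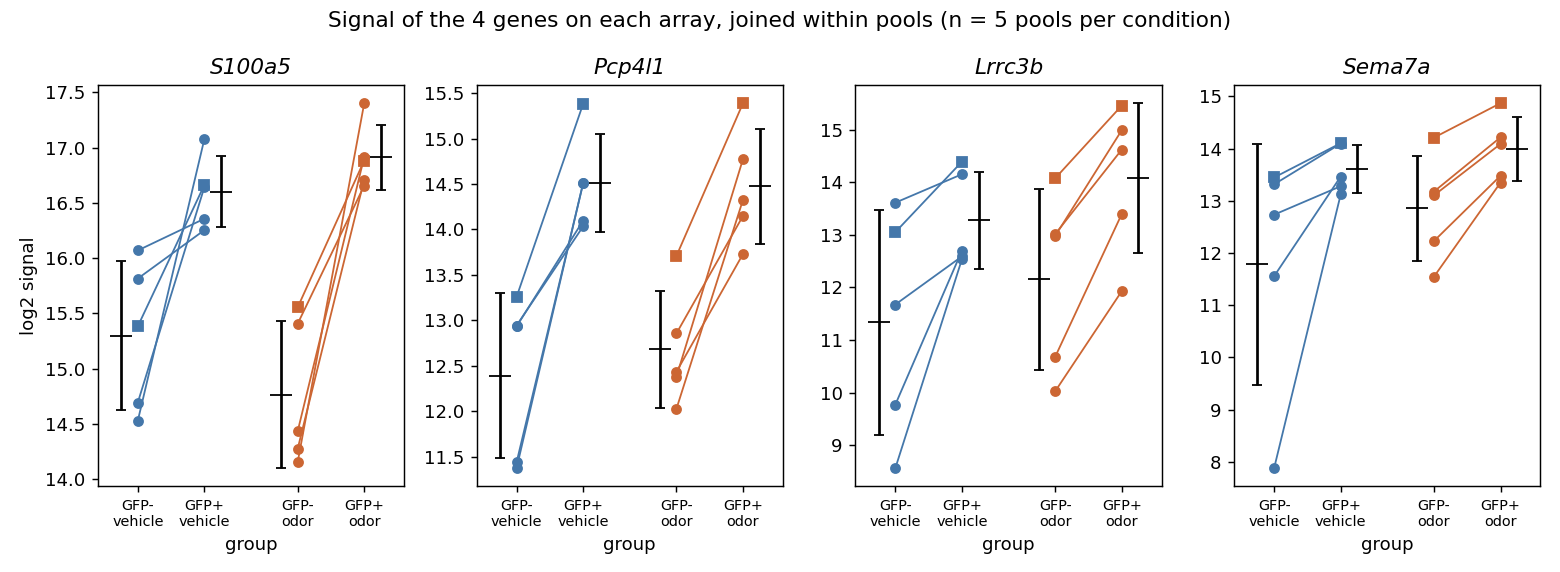
Log2 signal of S100a5, Pcp4l1, Lrrc3b and Sema7a on each array, with lines that join GFP- and GFP+ cells of 1 pool (blue vehicle, orange odor, squares for replicate 5) and bars for the mean and SD of 5 arrays. Every line climbs from GFP- to GFP+, and the lowest point of the Sema7a panel is vehicle pool 1 at 7.88.

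With both conditions averaged over 10 pools, all 4 genes were called higher in GFP+ cells. The mean log2 differences were 1.73 for S100a5 (SE 0.25, adjusted p = 0.000239), 1.96 for Pcp4l1 (SE 0.23, adjusted p = 2.95e-05), 1.93 for Lrrc3b (SE 0.29, adjusted p = 0.000325) and 1.49 for Sema7a (SE 0.37, adjusted p = 0.0155), all by limma. In that fit 4.61% of all probe sets were called higher and 9.39% lower (1023 and 2086). With arrays centred on their medians the split was 4307 higher and 1674 lower, and all 4 genes were still called higher. In vehicle pools alone 4 of 4 genes passed where 2.26% of probe sets did, and in odor pools 3 of 4 passed where 2.07% did. GFP+ cells were above GFP- cells in all 10 pools for each of the 4 genes and for 2.77% of probe sets. Groups did not overlap for S100a5 and Pcp4l1, against 0.829% of probe sets in vehicle and 1.04% in odor pools. The genes ranked 250 (S100a5), 203 (Pcp4l1), 208 (Lrrc3b) and 305 (Sema7a) from the highest mean difference among 22206 probe sets. The genes had been grouped with results of these data known, so these shares describe the group and are not independent support for it.

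The differences were also set against those of the mature sensory neuron genes in the same pool. Omp, the olfactory marker protein of mature neurons, had a log2 difference of 0.22 (SE 0.23, adjusted p = 0.717 by limma) in vehicle and 0.12 (SE 0.23, adjusted p = 0.901 by limma) in odor pools, at signals 0.09 to 0.61 below the brightest probe set. Whether the top of the signal range compressed this difference was not tested. Of 17 listed mature neuron genes, 1 rose in vehicle pools (Slc8a1, a sodium-calcium exchanger, by 1.31) and 0 in odor pools by limma, against 2.26% and 2.07% of all probe sets, with medians of 0.51 and 0.40. With quantile normalization or median centring 3 and 1 of them passed, where 5.26% and 3.63% of probe sets were called higher with median centring. Averaged over both conditions 3 of 17 rose (Slc8a1, Ano2 and Pde1c) against 4.61% of probe sets. The count was 5 under quantile normalization and 9 under median centring, and with median centring 19.4% of probe sets were called higher. Pcp4l1 exceeded the median of these genes by 0.82 to 2.29 and Lrrc3b by 0.64 to 2.14 in the 10 pools. Sema7a exceeded it by 0.41 to 1.16 in 9 pools and by 3.26 in vehicle pool 1. S100a5 exceeded it by 0.54 to 2.85 in 9 pools, and in vehicle pool 1 its difference of 0.29 lay below their median of 1.98. Fewer of the 4 genes exceeded the highest of the 17 mature neuron genes in the same pool. Their number was 2, 1, 3, 1 and 3 in vehicle pools 1 to 5 and 4, 2, 3, 3 and 1 in odor pools 1 to 5. With each array centred on these mature neuron genes, the mean differences over both conditions were 1.36 for S100a5, 1.59 for Pcp4l1, 1.57 for Lrrc3b and 1.13 for Sema7a, and all 4 remained called (adjusted p from 6.73e-06 to 0.014 by limma).

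**Figure D2:**
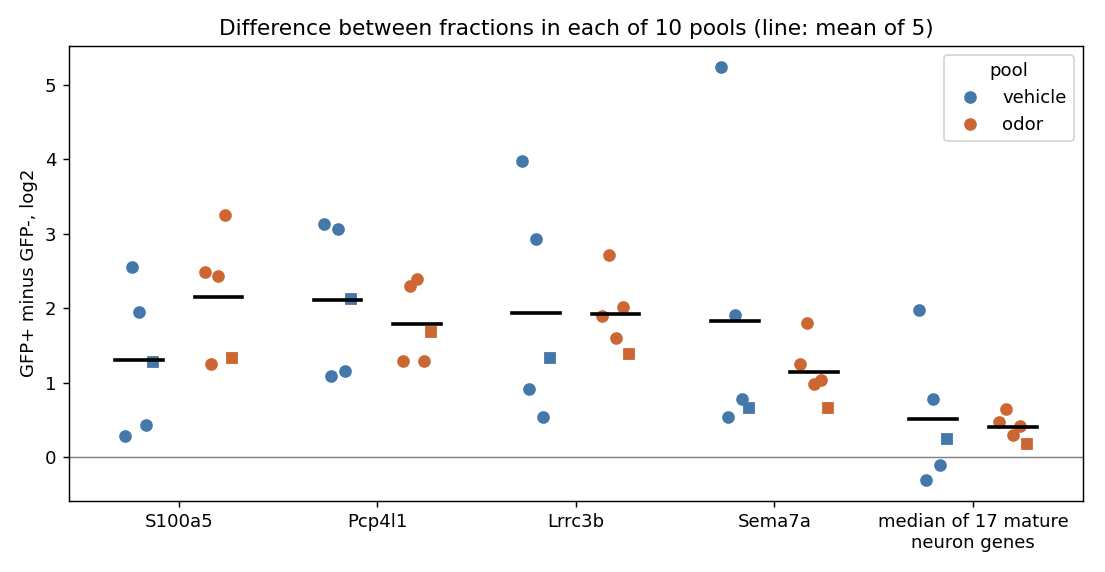
GFP+ minus GFP- log2 difference of each gene in each of 10 pools and, at the right, the median difference of 17 mature sensory neuron genes (blue vehicle, orange odor, squares for replicate 5, line for the mean of 5). All differences of the 4 genes are above 0, and vehicle pool 1 is highest for Sema7a (5.24) and lowest for S100a5 (0.29).

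Genes of neutrophils differed between the fractions by more than the 4 genes. With both conditions averaged, 3 of 10 sustentacular and 0 of 5 horizontal basal genes fell by limma, where 9.39% of all probe sets fell. In the same fit 8 of 10 microvillar and tuft-like, 7 of 9 lymphocyte and 5 of 8 globose basal and cycling genes fell. So did 3 of 8 Bowman gland and secretory and 1 of 7 endothelial and stromal genes. None of the genes in these lists rose. All 11 measured neutrophil genes fell in GFP+ cells in both conditions, where 6.86% of probe sets fell in vehicle and 5.82% in odor pools (median log2 difference -7.22 in vehicle and -6.44 in odor pools). The log2 of their summed signal ran from 18.6 to 20.0 in vehicle GFP-, 18.3 to 19.4 in odor GFP-, 9.18 to 9.76 in vehicle GFP+ and 9.23 to 9.78 in odor GFP+ arrays. Of 10 macrophage and monocyte genes 7 fell in vehicle and 6 in odor pools, and of 14 immature neuron genes 5 fell in each. Their part in the differences of the 4 genes was not tested beyond the scaling on mature neuron genes.

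Whether the 4 genes vary together from pool to pool was examined with the 10 differences of each gene, over 6 pairs. Lrrc3b and Sema7a varied together, with a Pearson r of 0.876 (permutation p = 0.0001, adjusted 0.0008) and a Spearman rho of 0.915 (permutation p = 0.0006, adjusted 0.0036). Without vehicle pools 1 and 4, the farthest from the median of Lrrc3b, r was 0.977, and without both pools numbered 5 it was 0.864. Pcp4l1 and Lrrc3b had an r of 0.795 (permutation p = 0.0052, adjusted 0.0115) and a rho of 0.746 (permutation p = 0.0168, adjusted 0.0503). Pcp4l1 and Sema7a had an r of 0.694 (permutation p = 0.0057, adjusted 0.0115) and a rho of 0.685 (permutation p = 0.0345, adjusted 0.0689). Without vehicle pools 1 and 3, the farthest from the median of Pcp4l1, these fell to 0.495 and 0.389. Leaving out the farthest pools also narrows the range, so how far the relations rest on them cannot be told. Without vehicle pool 1 alone r was 0.69 for the first pair. For the second it was 0.652 and lost its call (permutation p = 0.0611).

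No relation of S100a5 with the other 3 genes passed. Its r was -0.37 with Pcp4l1 (permutation p = 0.289, rho -0.45 with permutation p = 0.191), -0.20 with Lrrc3b (permutation p = 0.584, rho -0.12 with permutation p = 0.761) and -0.48 with Sema7a (permutation p = 0.166, rho -0.28 with permutation p = 0.428), and none passed after adjustment over the 6 pairs (0.249 to 0.584 for r and 0.287 to 0.761 for rho). Without odor pool 4 and vehicle pool 1 these were 0.06, 0.23 and 0.07. After the median of the mature neuron genes was subtracted in each pool, Lrrc3b and Sema7a had an r of 0.522 (permutation p = 0.123, adjusted 0.369). S100a5 and Sema7a then had an r of -0.788 (permutation p = 0.0256, adjusted 0.154), which did not pass after adjustment and was -0.24 without vehicle pool 1. The pool differences of the 4 genes come from the same arrays, and the part of fraction makeup in these relations was not tested. A single condition holds 5 pools, too few for a correlation within it.

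**Figure D3:**
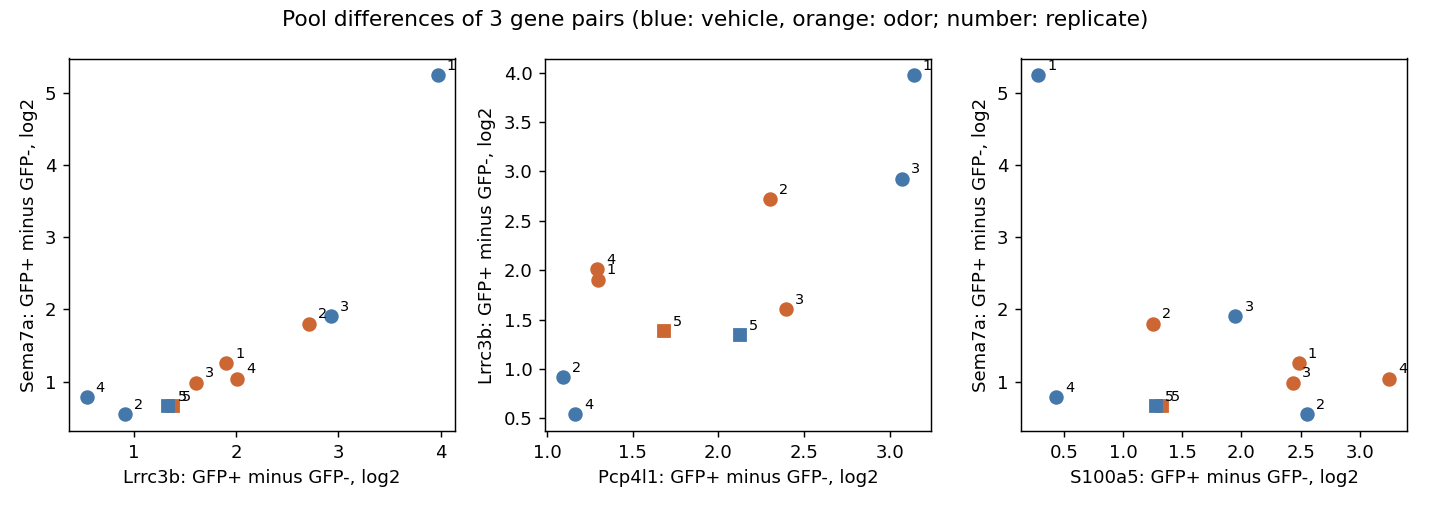
GFP+ minus GFP- log2 differences of 3 pairs of genes, 1 point for each of 10 pools (blue vehicle, orange odor, squares for replicate 5, numbers for the replicate). Lrrc3b and Sema7a line up (r = 0.876), Pcp4l1 and Lrrc3b less tightly (r = 0.795), and S100a5 is lowest in vehicle pool 1, where Sema7a is highest.

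The odor was then compared with the vehicle for each gene. No probe set passed in GFP+ cells, in GFP- cells or for the difference between fractions (0 of 22206 each by limma), and at an unadjusted p under 0.05 there were 61, 30 and 269 probe sets, or 0.275%, 0.135% and 1.21%. None of the 4 genes was below 0.05 unadjusted in any of the 3 comparisons, and adjusted p-values were 1.0 by limma throughout. In GFP+ cells, odor minus vehicle was 0.31 for S100a5 (95% confidence interval -0.23 to 0.86), -0.03 for Pcp4l1 (-0.82 to 0.75), 0.81 for Lrrc3b (-0.62 to 2.23) and 0.39 for Sema7a (-0.36 to 1.13). The GFP+ arrays of the 2 conditions overlapped for each gene, as did the GFP- arrays, where 0.0585% and 0.054% of probe sets were higher with odor without overlap. S100a5 is again the gene of the gate, so its level in GFP+ cells is not independent of the sort. In GFP- cells the values were -0.53 for S100a5 (-1.44 to 0.37), 0.29 for Pcp4l1 (-0.73 to 1.31), 0.82 for Lrrc3b (-1.44 to 3.08) and 1.07 for Sema7a (-1.02 to 3.15). The Sema7a value became 0.09 without vehicle replicate 1, and Lrrc3b became 0.13.

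The change of the GFP+ minus GFP- difference with odor was 0.85 for S100a5 (-0.25 to 1.94), -0.32 for Pcp4l1 (-1.31 to 0.66), -0.01 for Lrrc3b (-1.28 to 1.26) and -0.68 for Sema7a (-2.30 to 0.94). The intervals allow upward changes of up to 3.85-fold for S100a5, 1.58-fold for Pcp4l1, 2.39-fold for Lrrc3b and 1.92-fold for Sema7a. For S100a5 both fractions moved apart in value, GFP+ upward and GFP- downward, without passing the test in either. Without vehicle replicate 1 the Sema7a value turned to 0.18 and the Lrrc3b value to 0.49, so the sign of Sema7a rests on that pool, while that of Lrrc3b turned without others too.

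**Figure D4:**
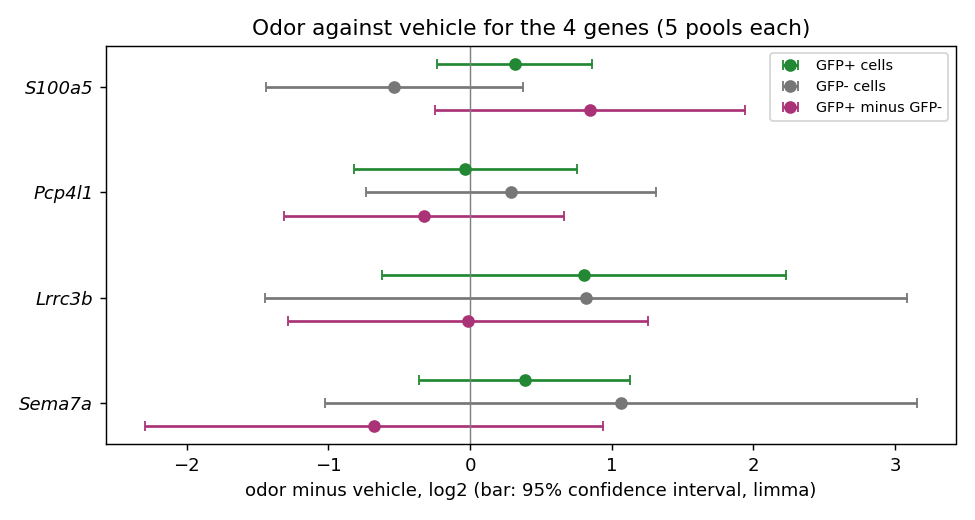
Odor minus vehicle on the log2 scale for each gene in GFP+ cells (green), GFP- cells (grey) and for the GFP+ minus GFP- difference (purple), with 95% confidence intervals from limma and 5 pools in each condition. Every interval includes 0, and those of Lrrc3b and Sema7a in GFP- cells are the widest.

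Other genes tied to sensory neuron activity were taken from a list of 12, of which 10 were measured, the 4 genes included. With both conditions averaged, 2 of the 6 others rose and 0 fell by limma, with a median of 0.63. With the 4 genes counted in, which were chosen with these results known, 6 of 10 rose and 0 fell. Of all probe sets 4.61% rose, and the median was 1.49 for the list against 0.09 for all probe sets. With quantile normalization or median centring 7 rose, and with median centring 19.4% of all probe sets rose. The 2 others were Pcdh10, an adhesion protein of the protocadherin family, at 1.57 (SE 0.35, adjusted p = 0.00649 by limma) and Plcxd3, a phospholipase-like protein, at 0.52 (SE 0.14, adjusted p = 0.0202 by limma). Kirrel2, an adhesion molecule that sorts axons of like receptor, had a value near that of Pcdh10, 1.5 (SE 0.49), and did not pass (adjusted p = 0.0621 by limma). Slc17a6, the vesicular glutamate transporter, was at 0.68, Pcdh17 at 0.58 and Rasgrp4 at -0.38, none past the threshold. In vehicle pools alone the 4 genes passed and in odor pools 3 of them, where 2.26% and 2.07% of probe sets rose. With median centring 6 and 4 of the list passed, where 5.26% and 3.63% of probe sets rose. With the arrays as deposited, Pcdh10 was at 1.52 in vehicle and 1.62 in odor pools, and Kirrel2 at 1.57 and 1.43. Of 4 measured genes listed as lowered by activity, Calb2, the calcium-binding protein calretinin, fell by 4.22, Epha5, an ephrin receptor, rose by 0.74, and Kirrel3 (-0.22) and Efna5 (0.00) did not pass.

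Immediate early genes did not share the direction of the 4 genes. Of 15 measured, 10 fell in GFP+ cells over both conditions and 0 rose by limma, against 9.39% of all probe sets lower, with a median of -2.31. Fos was at -5.27, Egr1 at -6.53, Junb at -3.26 and Nr4a1 at -2.31, while Npas4 (0.18) and Arc (-0.31), both linked to neuronal activity, did not pass. The neutrophil genes fell in the same comparison, and which cells carried the early transcripts was not tested.

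Most relatives of each gene fell or did not pass the test. Of 18 measured genes of the S100 list, in which S100pbp is a binding protein and no S100 protein, S100a5 was the 1 that rose over both conditions by limma and 6 fell, where 4.61% of all probe sets rose and 9.39% fell. S100a8 and S100a9, abundant in neutrophils, were at -10.22 and -9.65, S100a11 at -7.01, S100a6 at -1.77, S100a10 at -1.23 and S100a4 at -1.09. With each array centred on its median 9 of the 18 were higher and 6 lower, against 19.4% and 7.54% of probe sets. Next to S100a5 among the measured genes of the RefSeq order lie S100a4 on one side and S100a6 on the other, so both nearest neighbours fell while S100a5 was higher. Pcp4, the nearest relative of Pcp4l1 in the list, was at 0.04 (adjusted p = 0.943 by limma), and none of the other 9 measured genes of the Pcp4, calmodulin and calmodulin kinase list passed. Lrrc3 (-0.03) and Lrrc3c (0.06) did not pass either. Of 19 semaphorins 3 rose (4 with median centring), Sema7a, Sema3e (1.05) and Sema6c (0.89), and 0 fell, where 4.61% of probe sets rose (19.4% with median centring). The Sema7a receptors Plxnc1 (-0.30), Itgb1 (-0.57) and Itgav (-0.16) did not pass. None of the measured genes on either side of Pcp4l1 (Sdhc at 0.44, Nr1i3 at 0.18), Lrrc3b (Nek10 at 0.30, Oxsm at 0.37) or Sema7a (Ubl7 at 0.45, Cyp11a1 at -0.17) passed by limma.

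**Figure D5:**
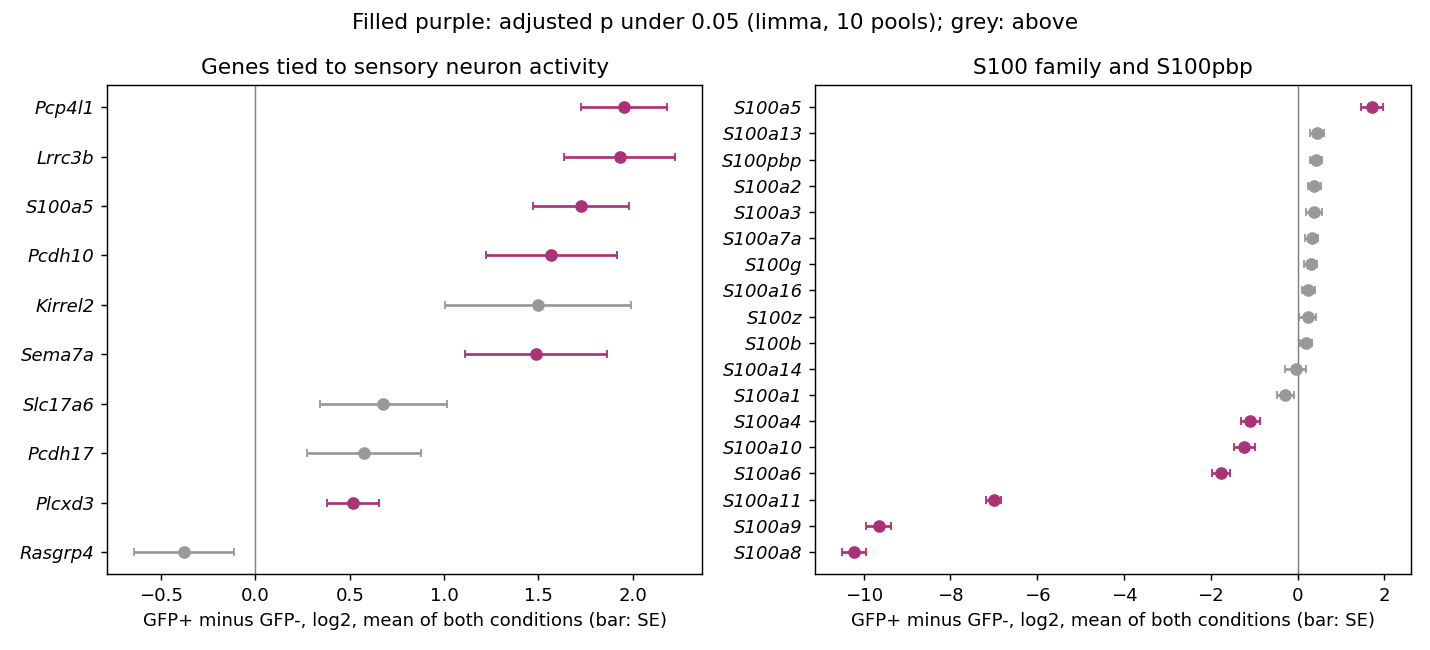
GFP+ minus GFP- log2 difference, mean of both conditions with its SE over 10 pools, for 10 activity-associated genes (left) and for 17 S100 genes with S100pbp (right), purple where the adjusted p by limma is under 0.05. S100a5 is the 1 purple point above 0 at the right with the arrays as deposited, and 6 of 10 genes at the left are purple. With median centring 9 genes at the right were higher, where 19.4% of all probe sets were.

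Genes whose pool differences were nearest to those of each of the 4 genes were found by the root-mean-square gap over 10 pools, in log2 units. The gap takes in the size of the differences as well as their pattern over pools. For S100a5 these were 5 odorant receptors, Olfr1294 (gap 0.64), Olfr194 (0.68), Olfr701 (0.78), Olfr205 (0.82) and Olfr1168 (0.83). Pcp4l1, Lrrc3b and Sema7a lay 1.39, 1.48 and 1.96 away from S100a5, at ranks 303, 517 and 9534. Pcp4l1 also had 5 odorant receptors nearest to it, Olfr178 (0.37), Olfr1537 (0.41), Olfr1246 (0.41), Olfr112 (0.41) and Olfr193 (0.44). From Pcp4l1, the ranks were 24 for Lrrc3b, 272 for Sema7a and 741 for S100a5. Lrrc3b had Olfr43 (0.41), Olfr273 (0.46), Olfr1284 (0.48), Olfr541 (0.50) and Olfr167 (0.55), and Pcp4l1 came 7th with 0.59. Sema7a ranked 48 and S100a5 1161 from Lrrc3b. Sema7a had no odorant receptor among its 5 nearest, of which the first 4 were Pcdh7, a protocadherin (0.41), Syn2, a synaptic vesicle protein (0.62), 9530077C05Rik (0.63) and Dclk3, a kinase (0.63). From Sema7a, Lrrc3b ranked 36, Pcp4l1 343 and S100a5 8190. The points share the arrays and pools of the 4 genes, and the lowest signals of Olfr194 (5.05) and Olfr1284 (5.00) lay below the lowest median of the background controls, 5.14. The share of odorant receptors among all named genes searched, or among those with differences of like size, was not counted. The runs of receptors therefore cannot show a particular tie to these genes.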

How the data were processed

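RNA of sorted GFP+ and GFP- cells was hybridised to Affymetrix Clariom S arrays, from 50 to 100 ng of total RNA per the labels' protocols. As deposited, each probe set has a log2 signal, made by the authors with Affymetrix Expression Console per the submitters' processing notes, and how the arrays were normalized is not given in the sources used here. Of 28846 rows, 6640 control rows were left out, 22206 probe sets were tested with no filter, and 19572 had 1 gene symbol, 0 had several and 2634 had none. All 19572 matched RefSeq on GRCm38.p6 by gene ID. The file holds no detection calls. The number of arrays limits the precision.

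GFP+ minus GFP- differences within pools were fitted in 1 limma model for both conditions, and odor was compared with vehicle on the 10 arrays of each fraction (limma 3.58.1, R 4.3.3, Benjamini-Hochberg over all probe sets, threshold 0.05). That the fractions of a number came from the same mice follows from the labels (30 mice in 10 pools of 3). Whether pools are separate batches of housing is not given. Correlations used 100000 permutations, two-sided. Same-numbered odor and vehicle arrays deviated together in GFP+ cells (r 0.86 for replicate 5 and 0.16 to 0.52 for the others). Deviations were taken from group means that include the shifted arrays of replicate 5, which can by itself raise r for the other numbers. Pairing apart from this was not tested. In GFP- cells (-0.38 to 0.84) and in the differences (-0.48 to 0.21) the sign varied between numbers. The reported odor comparisons did not pair pools by number. With the replicate block as an alternative, no probe set passed in GFP+ cells either, so it had no call to change. In a simulated sort in vehicle pools with 22206 probe sets, the test found 87 of 100 probe sets changed 4-fold and 23 of 100 changed 2-fold, with 6.78% false calls. The simulated noise was independent on each array, with no shifted or divergent arrays, so these rates need not hold for the data.

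The 4 genes and all lists were chosen with earlier results of these data known. Named genes are the 4, members of lists that passed and up to 4 others, the 5 nearest by pool difference, and Omp. Neighbouring genes, 2 promoter motifs and the scaling on mature neuron genes were added after the data were seen. The alternatives tried were centring on the median or on mature neuron genes, quantile normalization, a filter on the dimmest 25%, an intensity trend, a term for replicate 5, leaving out pools, the replicate block and unpaired fractions.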

Additional observations from a re-analysis of the deposited data

How the results depend on the processing

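Of the S100a5, Pcp4l1, Lrrc3b and Sema7a differences between fractions, every alternative kept the positive sign. In vehicle pools S100a5 lost its call with quantile normalization (1.26), without both pools numbered 5 (1.31), with the replicate block (1.30, adjusted p = 0.124 by limma) and with centring on mature neuron genes (0.78). Sema7a lost it with a term for replicate 5 (1.83), without both pools numbered 5 (2.12), with the replicate block (1.83), unpaired (1.83) and with centring on mature neuron genes (1.30). With fractions unpaired (no replicate block) Lrrc3b lost its calls in vehicle (1.94), odor (1.92) and averaged (1.93) pools and Sema7a in averaged pools (1.49), while the counts of calls fell to 1198, 1050 and 1793 from 2024, 1752 and 3109.

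Leaving out each pool in turn, S100a5 ran from 0.99 to 1.55 in vehicle pools, 1.87 to 2.37 in odor pools and 1.57 to 1.85 averaged. Pcp4l1 ran from 1.86 to 2.37, 1.64 to 1.92 and 1.83 to 2.08, Lrrc3b from 1.43 to 2.29, 1.73 to 2.06 and 1.68 to 2.11, and Sema7a from 0.97 to 2.15, 0.98 to 1.27 and 1.06 to 1.65. Counts of calls ran from 1532 to 2316 in vehicle, 1296 to 2127 in odor and 2548 to 4125 in averaged pools. Odor effects on the difference ran from 0.57 to 1.16 for S100a5, -0.58 to -0.07 for Pcp4l1, -0.36 to 0.49 for Lrrc3b and -1.0 to 0.18 for Sema7a. In GFP+ cells they ran from 0.19 to 0.43, -0.26 to 0.19, 0.46 to 1.34 and 0.17 to 0.55, and in GFP- cells from -0.73 to -0.34, 0.03 to 0.51, 0.13 to 1.39 and 0.09 to 1.48. Signs turned for Lrrc3b in the difference without vehicle replicate 1 (0.49), vehicle replicate 3 (0.23), odor replicate 3 (0.06) or odor replicate 5 (0.12) and with centring on mature neuron genes (0.31). They turned for Sema7a there without vehicle replicate 1 (0.18), and for Pcp4l1 in GFP+ cells without vehicle replicate 5 (0.19), odor replicate 1 (0.15), 2 (0.0035) or 4 (0.05) and with that centring (0.077). The cause was not tested.

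Centring on the median raised the count averaged over conditions to 5981 (4307 higher, 1674 lower, against 1023 and 2086) and shifted the all-gene median to 0.32 from 0.09. In vehicle pools it split 1169 higher and 1211 lower against 501 and 1523, in odor pools 807 and 1055 against 460 and 1292. Centring on mature neuron genes gave 291 and 2606 in vehicle, 340 and 1404 in odor and 443 and 3029 in averaged pools.

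Correlations of pool differences without 1 pool ran from 0.871 to 0.915 for Lrrc3b with Sema7a, 0.693 to 0.844 for Pcp4l1 with Lrrc3b, 0.652 to 0.748 for Pcp4l1 with Sema7a, -0.65 to -0.12 for S100a5 with Pcp4l1, -0.54 to 0.27 with Lrrc3b and -0.65 to 0.05 with Sema7a, where the last 2 turned without vehicle replicate 1 (0.27 and 0.045). Without the 2 farthest pools S100a5 turned to 0.062, 0.23 and 0.072, and Pcp4l1 weakened to 0.495 with Lrrc3b and 0.389 with Sema7a. Relative to mature neuron genes Lrrc3b with Sema7a fell to 0.522, Pcp4l1 with Lrrc3b to 0.178, Pcp4l1 with Sema7a turned to -0.17 and S100a5 with Sema7a went to -0.79, below 0.05 before adjustment over the 6 pairs (permutation p = 0.0256) but not after it (0.154), and to -0.24 without vehicle replicate 1.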
